A study of Mus musculus with 4 samples.

Results

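Expression of 35 genes of the cell cycle was examined in liver RNA of mice with and without the RNA-editing enzyme ADAR2. The genes were chosen by name and comprise cyclins, replication genes, mitosis genes and their transcription factors. They also include a group of cell cycle arrest genes and p53 targets, called arrest genes below. All 35 were found among the 25655 genes of the deposited table. The 2 HFD-WT libraries came from male ADAR2+/+/GluR-BR/R mice and the 2 HFD-KO libraries from male ADAR2−/−/GluR-BR/R mice, all fed a high-fat diet (HFD) for 12 weeks from 5 weeks of age. Both genotypes thus carried the GluR-B R/R allele, without which ADAR2-null mice do not survive, and both were bred from heterozygous parents, with B6129S as the background strain. The deletion was not restricted to the liver. The sex is that of the study's later experiments, to which the liver RNA belongs, and is not in the sample labels. More mice per group are given for the analysis of these data than there are libraries, but how mice were assigned to libraries is not given in the sources used here, so the p-values measure the spread between these libraries only.

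A cell divides by passing through a growth phase, DNA synthesis and mitosis, driven by cyclins that switch on cyclin-dependent kinases (CDKs) in turn. D and E cyclins release E2F transcription factors from the RB protein, E2F activates the genes of DNA synthesis, and a later wave of genes with FOXM1 and B-MYB serves mitosis. Hepatocytes of an adult liver are mostly quiescent and often polyploid, and they re-enter the cycle after injury or loss of tissue. The CDK inhibitors p21 and p27 and the p53 pathway hold cells back.

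The libraries held between 24480798 and 28691330 counted reads, and 3 reads corresponded to between 0.105 and 0.123 CPM, the reads of a gene scaled to a fixed library total. This level is the floor used here, the upper limit that a count of 0 allows, and it covers counting error only. CPM values of genes were scaled by edgeR's TMM factors as well. Adarb1, which encodes ADAR2, had 454 and 545 reads in the HFD-WT libraries and 164 and 228 reads in the HFD-KO libraries (log2 fold change -1.17, adjusted p = 0.159 by edgeR), and gene counts do not show on which exons those reads fell. Hepatocyte markers were abundant in every library, with a summed level of 10 markers between 88855 and 102227 CPM.

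Per exon length, the arrest genes, Pcna, Ccnd1 and Ccnd3 were far above the genes of mitosis, while Ccnd2, Ccne1 and Ccne2 were not. On the scale of RPKM, which divides reads by exon length and library total, 15 of the 35 genes reached a mean of 1 over the 4 libraries and 20 did not. The order was led by Pcna (14.3 RPKM), the sliding clamp of DNA polymerase, Cdkn1a (14.3 RPKM), which encodes p21, Ccnd3 (13.5 RPKM) and the p53 target Ccng1 (11.8 RPKM). The levels of Pcna and Cdkn1a differed by less than the spread of either gene between libraries. Mki67, the classic mark of dividing cells, ranked 30th with 0.176 RPKM, and the order ended with Cdc6 (0.0257 RPKM) and Bub1 (0.0250 RPKM). All 35 genes had reads in every library, from 1 read of Bub1 in HFD-KO replicate 2 to 1783 reads of Cdkn1a in HFD-WT replicate 2.

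**Figure D1:**
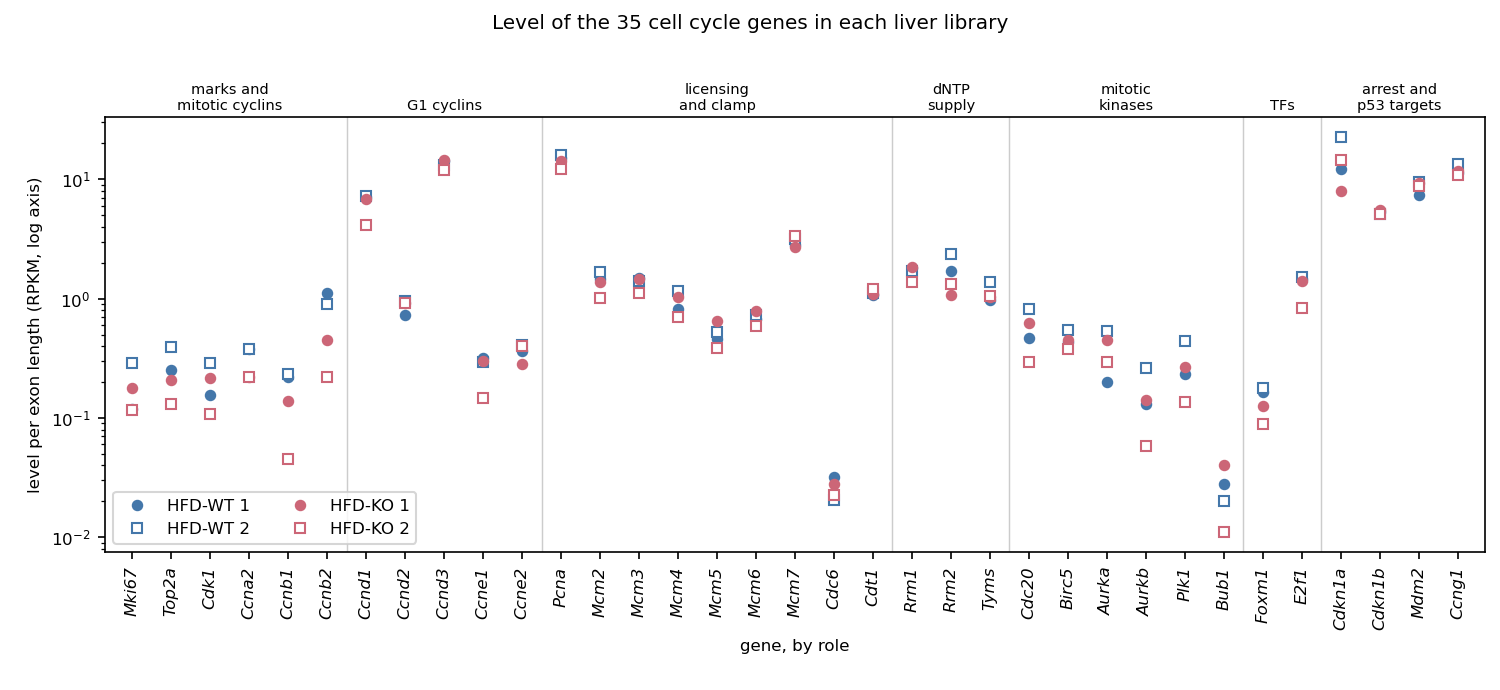
Level of each of the 35 genes in the 4 libraries, in RPKM on a log axis, with genes grouped by role and 1 point per library (points that coincide hide each other). D cyclins other than Ccnd2, Pcna and the arrest genes sit above 1 RPKM, while every gene of the mitotic kinase group has a mean below 1 RPKM.

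The question of this comparison was which of the genes differed with the loss of ADAR2. No single gene of the 35 reached an adjusted p under 0.05 by edgeR's quasi-likelihood test, against 0.0771% of the 12967 genes tested (0.054% higher and 0.0231% lower). Of the 35 genes, 32 passed the filter on low counts and were tested, while Cdc6, Aurkb and Bub1 did not. At an unadjusted p under 0.05, 3 of the 32 were lower in HFD-KO livers, namely Ccnb2, Rrm2 and Ccna2, and 0 were higher. Over all genes tested 4.73% were lower and 4.25% were higher by that rule, so the 3 genes, 9.38% of the members tested, stood against a background of 4.73%. DESeq2's Wald test gave 0 of the 33 members with an adjusted p at under 0.05, against 0.881% of all genes with one. At an unadjusted p under 0.05 it gave 2 of 35 members lower, Ccnb2 and Rrm2, and 0 higher, against 2.15% and 1.76% of all genes.

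In 10 of the 32 genes both HFD-KO values lay below both HFD-WT values, and in 1 gene, Cdt1, both lay above. Such a separation was found for 20.4% of all genes tested in the lower direction and 20.5% in the higher, against 31.3% and 3.13% of the members. The fitted difference was negative for 23 and positive for 9 of the 32 genes. Their median log2 fold change was -0.19, and that of all genes tested was 0.01. HFD-KO replicate 2 held the lowest value of the 4 libraries in 20 of the 32 genes, 62.5%, against 29.2% of all genes tested. The median was -0.05 without HFD-KO replicate 2 and -0.32 without HFD-KO replicate 1. It was -0.05 without HFD-WT replicate 2 and -0.35 without HFD-WT replicate 1, so its size depended on single libraries in both groups.

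**Figure D2:**
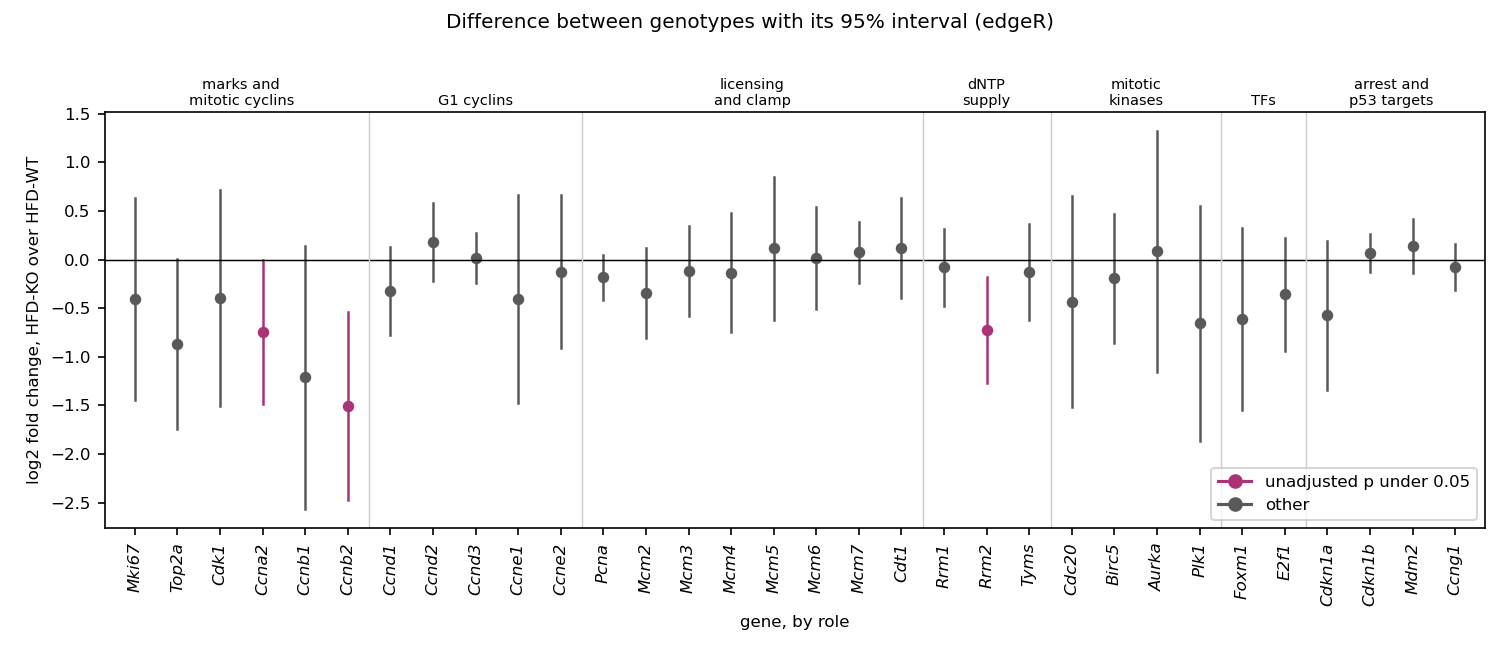
Log2 fold change of HFD-KO over HFD-WT for the 32 genes tested, with bars for the 95% interval of edgeR's fit. The intervals of Ccnb2, Rrm2 and Ccna2 lie below 0, and those of the other 29 genes include 0.

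The mitotic cyclins and the marks of dividing cells had the most negative differences of the role groups. All 6 genes of this group, Mki67, Top2a, Cdk1, Ccna2, Ccnb1 and Ccnb2, had a negative log2 fold change, with a median of -0.81. At an unadjusted p under 0.05 by edgeR, 2 of them were lower, 33.3% against 4.73% of all genes tested. Their summed level was 7.35 and 10.1 CPM in the HFD-WT libraries and 6.23 and 3.98 CPM in the HFD-KO libraries. The groups did not overlap in this sum, although it rested on few reads.

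Ccnb2 encodes cyclin B2, a partner of CDK1 at the entry into mitosis, and lies on chromosome 9 from 70314974 to 70328829 (GRCm39, as are all gene positions given here). It was counted with 53 and 40 reads in the HFD-WT libraries and 20 and 9 reads in the HFD-KO libraries. These reads correspond to 1.83 and 1.45 CPM in HFD-WT and 0.759 and 0.377 CPM in HFD-KO. Both HFD-KO values were thus below both HFD-WT values. The log2 fold change was -1.51 (standard error 0.41, 95% interval -2.48 to -0.54, unadjusted p = 0.0075 and adjusted p = 0.360 by edgeR). It was the most negative of the 32, and leaving out 1 library at a time gave values from -2.11 to -1.11. The value was -2.11 without HFD-KO replicate 1 and -1.11 without HFD-KO replicate 2. In each of these fits the lone HFD-KO library was assumed to vary like the others.

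Ccnb1, the gene of cyclin B1 on chromosome 13 from 100915158 to 100923078, had 17 reads in each HFD-WT library and 10 and 3 reads in the HFD-KO libraries. The 3 reads in HFD-KO replicate 2 stand at the floor of that library. The log2 fold change was -1.21 with a 95% interval from -2.57 to 0.14, so a difference was not detectable at this depth. The value was -0.66 without HFD-KO replicate 2 and -2.22 without HFD-KO replicate 1.

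Ccna2 encodes cyclin A2, which works in DNA synthesis and early mitosis, and lies on chromosome 3 from 36619014 to 36626299. It had 43 and 40 reads in HFD-WT and 23 and 21 reads in HFD-KO libraries, or 1.48 and 1.45 CPM against 0.873 and 0.879 CPM. The replicates of each group were close and the groups stood apart. Its log2 fold change was -0.74 (standard error 0.32, 95% interval -1.48 to -0.00179, unadjusted p = 0.050 and adjusted p = 0.554 by edgeR). Under other settings with all 4 libraries the unadjusted p lay on both sides of 0.05. It ranged from 0.035 by edgeR with a mean of at least 1 CPM to 0.167 by DESeq2's Wald test. Ccna2 shares 863 bases of its span with Exosc9 on the opposite strand, which had a mean of 9.16 CPM, and the use of strand in counting is not given in the sources used here. Exosc9 had 9.25 and 9.59 CPM in HFD-WT and 9.26 and 8.54 CPM in HFD-KO libraries.

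Top2a, the topoisomerase that untangles chromosomes before they separate, had 41 and 59 reads in HFD-WT and 31 and 18 reads in HFD-KO libraries. The groups did not overlap, at 1.42 and 2.14 CPM against 1.18 and 0.753 CPM. The fitted log2 fold change was -0.87 (95% interval -1.74 to 0.00355, unadjusted p = 0.051 by edgeR). Mki67 had 1.28 and 3.09 CPM in HFD-WT and 1.97 and 1.30 CPM in HFD-KO libraries. Both HFD-KO values lay between the HFD-WT values, and the log2 fold change turned from -0.40 to 0.36 without HFD-WT replicate 2. Cdk1, the kinase that drives mitosis, also overlapped between the groups, at 0.759 and 1.38 CPM against 1.06 and 0.544 CPM.

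Promoter windows are shown for 4 of the lower genes with separated groups and for Mcm6, a replication gene whose groups overlapped. The windows run from 250 bases before to 50 bases after the gene start and come from RefSeq on build GRCm38.p6, which holds 1 or more windows for 28 of the 35 genes. They were searched on both strands for the letters of the CHR element (TTTGAA) and of the CCAAT box (CCAAT), both known from promoters of mitotic genes, and of the E2F site (TTCGCGC or TTGGCGC). An E2F match that reads GCGCCAA on the printed strand can share its last letters with a CCAAT box. In the first 4 sequences capitals mark CHR and CCAAT letters, and in the sequence of Mcm6 they mark E2F letters. Ccnb2 is at chr9:70421505-70421804, Ccnb1 at chr13:100786437-100786736, Top2a at chr11:99024140-99024439 and Mcm6 at chr1:128359656-128359955, all on the minus strand, and Rrm2 is at chr12:24708004-24708303 on the plus strand.
Ccnb2: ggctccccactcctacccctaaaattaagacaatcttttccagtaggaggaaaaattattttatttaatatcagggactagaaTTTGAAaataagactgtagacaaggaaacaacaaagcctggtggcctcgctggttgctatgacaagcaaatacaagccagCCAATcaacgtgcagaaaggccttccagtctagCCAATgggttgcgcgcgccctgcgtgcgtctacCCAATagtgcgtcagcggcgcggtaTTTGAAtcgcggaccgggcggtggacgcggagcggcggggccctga
Ccnb1: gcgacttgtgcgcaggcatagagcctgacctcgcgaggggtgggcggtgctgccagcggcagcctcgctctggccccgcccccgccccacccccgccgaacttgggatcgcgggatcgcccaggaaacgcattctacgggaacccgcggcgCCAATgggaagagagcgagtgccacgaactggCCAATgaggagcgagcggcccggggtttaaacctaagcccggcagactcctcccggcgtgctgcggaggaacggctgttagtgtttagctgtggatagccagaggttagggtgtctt
Top2a: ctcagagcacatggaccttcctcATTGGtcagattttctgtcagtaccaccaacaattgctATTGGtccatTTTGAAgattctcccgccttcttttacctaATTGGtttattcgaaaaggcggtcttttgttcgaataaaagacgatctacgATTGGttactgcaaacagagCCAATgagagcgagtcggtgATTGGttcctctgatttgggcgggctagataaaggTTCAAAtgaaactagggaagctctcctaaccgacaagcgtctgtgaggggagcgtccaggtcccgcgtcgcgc
Rrm2: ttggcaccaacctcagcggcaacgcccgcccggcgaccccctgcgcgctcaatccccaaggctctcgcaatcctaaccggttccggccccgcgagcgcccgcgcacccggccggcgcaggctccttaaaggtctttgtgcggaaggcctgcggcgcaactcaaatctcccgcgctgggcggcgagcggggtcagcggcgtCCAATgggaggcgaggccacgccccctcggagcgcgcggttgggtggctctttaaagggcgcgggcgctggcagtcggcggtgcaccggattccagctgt
Mcm6: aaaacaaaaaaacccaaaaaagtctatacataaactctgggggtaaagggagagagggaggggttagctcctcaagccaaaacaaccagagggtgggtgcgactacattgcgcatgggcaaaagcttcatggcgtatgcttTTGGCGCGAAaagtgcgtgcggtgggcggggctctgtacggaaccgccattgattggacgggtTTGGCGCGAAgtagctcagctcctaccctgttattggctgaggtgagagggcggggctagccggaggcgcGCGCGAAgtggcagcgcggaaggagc

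The window of Ccnb2 held 3 CCAAT boxes, which began 87, 54 and 21 bases before the start and so lay 33 bases apart, together with 2 CHR matches. The Ccnb1 window held 2 CCAAT boxes 32 bases apart and 0 CHR matches, and the Top2a window held 6 CCAAT boxes and 2 CHR matches. Rrm2 had 1 CCAAT box and 0 CHR matches. Mcm6 had 5 E2F matches, of which 4 formed 2 overlapping pairs on opposite strands. Its window also held 2 CCAAT boxes, which are not in capitals, and 0 CHR matches. Ccnb1 had 1 E2F match, which shares letters with its first CCAAT box, while Ccnb2, Top2a and Rrm2 had 0. Over the windows of the marks and mitotic cyclins, CHR letters were in 4 of 5, CCAAT letters in 5 of 5 and E2F letters in 3 of 5. Over those of the licensing genes and the clamp, CHR letters were in 1 of 9, CCAAT letters in 7 of 9 and E2F letters in 5 of 9. The mitotic kinases and checkpoint genes held CHR letters in 3 of 5 windows, CCAAT letters in 4 of 5 and E2F letters in 0 of 5. The 5 windows of arrest genes held CHR letters in 0, CCAAT letters in 3 and E2F letters in 0. Among all 32851 windows, 17.9% held CHR letters, 37.4% held CCAAT letters and 3.89% held E2F letters. CHR letters were in windows of Ccnb2, Top2a and Mcm2, whose groups were separated. They were also in windows of Mki67, Cdk1, Plk1, Cdc20 and Aurka, whose groups overlapped. A match describes the letters only.

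The D and E cyclins, which act before DNA synthesis, had 0 of 5 genes with an unadjusted p under 0.05. Ccnd1, the cyclin D1 gene that growth factors induce, had 28.5 and 28.4 CPM in HFD-WT and 28.0 and 17.3 CPM in HFD-KO libraries. The first 3 values were alike and HFD-KO replicate 2 was low. The fitted log2 difference was -0.32 with a standard error of 0.19 and an adjusted p = 0.677 by edgeR. It became -0.02 without HFD-KO replicate 2 and -0.71 without HFD-KO replicate 1. Ccnd3 had 42.1 and 38.4 CPM in HFD-WT and 44.3 and 37.1 CPM in HFD-KO libraries, and its 95% interval of -0.24 to 0.27 was among the narrowest. Ccnd2, with a log2 fold change of 0.18, and the E cyclin genes Ccne1 and Ccne2, with -0.41 and -0.13, overlapped between the groups. Ccne2 spans 5622 bases in common with Ints8 on the opposite strand, which had a mean of 11.5 CPM against 1.26 CPM for Ccne2.

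Genes of replication licensing stood close to 0. MCM proteins form the ring that unwinds DNA, and CDC6 and CDT1 load it onto origins. Of the 8 genes tested in this group, 4 were positive and 4 negative, the median log2 fold change was -0.05, and 0 had an unadjusted p under 0.05. Pcna had 24.5 and 25.5 CPM in HFD-WT and 23.6 and 20.4 CPM in HFD-KO libraries, apart by a small margin (log2 fold change -0.18, 95% interval -0.41 to 0.05). Mcm2 had 5.35 and 5.96 CPM against 5.09 and 3.81 CPM, also without overlap, and a log2 fold change of -0.34. Both HFD-KO values were again the lower ones. The other MCM genes, Mcm3, Mcm4, Mcm5, Mcm6 and Mcm7, overlapped between the groups, with log2 fold changes from -0.14 for Mcm4 to 0.11 for Mcm5. Cdt1 was the one gene of the 32 with both HFD-KO values higher, at 2.62 and 2.93 CPM against 2.52 and 2.58 CPM, and its 95% interval was -0.39 to 0.64. Cdc6 had 8 reads in the HFD-WT and 7 in the HFD-KO libraries together, a ratio of 0.954 with an exact 95% interval from 0.294 to 3.01 for counting error alone.

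The genes of deoxynucleotide supply include both subunits of 1 enzyme. Rrm2 encodes the small subunit of ribonucleotide reductase, the subunit that dividing cells make anew, and lies on chromosome 12 from 24758240 to 24764145. It had 127 and 165 reads in HFD-WT and 73 and 84 reads in HFD-KO libraries, or 4.38 and 6.00 CPM against 2.77 and 3.52 CPM. The groups did not overlap. Its log2 fold change was -0.72 (standard error 0.23, 95% interval -1.27 to -0.18, unadjusted p = 0.016 and adjusted p = 0.436 by edgeR), and leaving out 1 library at a time gave values from -0.94 to -0.48. Rrm1, the large subunit, had 7.90 and 7.27 CPM in HFD-WT and 8.16 and 6.19 CPM in HFD-KO libraries, with a log2 fold change of -0.08 (95% interval -0.47 to 0.32). The difference between the changes of the subunits was not tested. Tyms, which makes thymidylate, overlapped between the groups, with a log2 fold change of -0.12.

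Of the 6 mitotic kinases and checkpoint genes 4 were tested, with 0 at an unadjusted p under 0.05. Plk1 had the most negative value, -0.66 on the log2 scale, with a 95% interval from -1.86 to 0.55, from 16 and 28 reads in HFD-WT and 17 and 8 reads in HFD-KO libraries. Cdc20, the activator of the anaphase-promoting complex, and Birc5, which encodes survivin, had log2 fold changes of -0.43 and -0.19, and Aurka had 0.08. All 4 overlapped between the groups. Aurkb had 23 reads in the HFD-WT and 11 in the HFD-KO libraries together, a ratio of 0.521 with an exact 95% interval from 0.229 to 1.11, and Bub1 had 5 reads in each group. For these genes a difference was not detectable at this depth.

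In Foxm1 and E2f1, the transcription factors of the mitotic and the replication genes, both HFD-KO values lay below both HFD-WT values. The same held for 20.4% of all genes tested. Both genes had their lowest value in HFD-KO replicate 2. E2f1 had 4.94 and 5.05 CPM in HFD-WT and 4.82 and 2.93 CPM in HFD-KO libraries. Foxm1 had 24 reads in each HFD-WT library and 17 and 11 reads in the HFD-KO libraries. HFD-KO replicate 1 thus lay just under the HFD-WT values of E2f1. The log2 fold changes were -0.36 (95% interval -0.94 to 0.22) for E2f1 and -0.61 (95% interval -1.55 to 0.33) for Foxm1, and that of E2f1 was -0.05 without HFD-KO replicate 2.

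**Figure D3:**
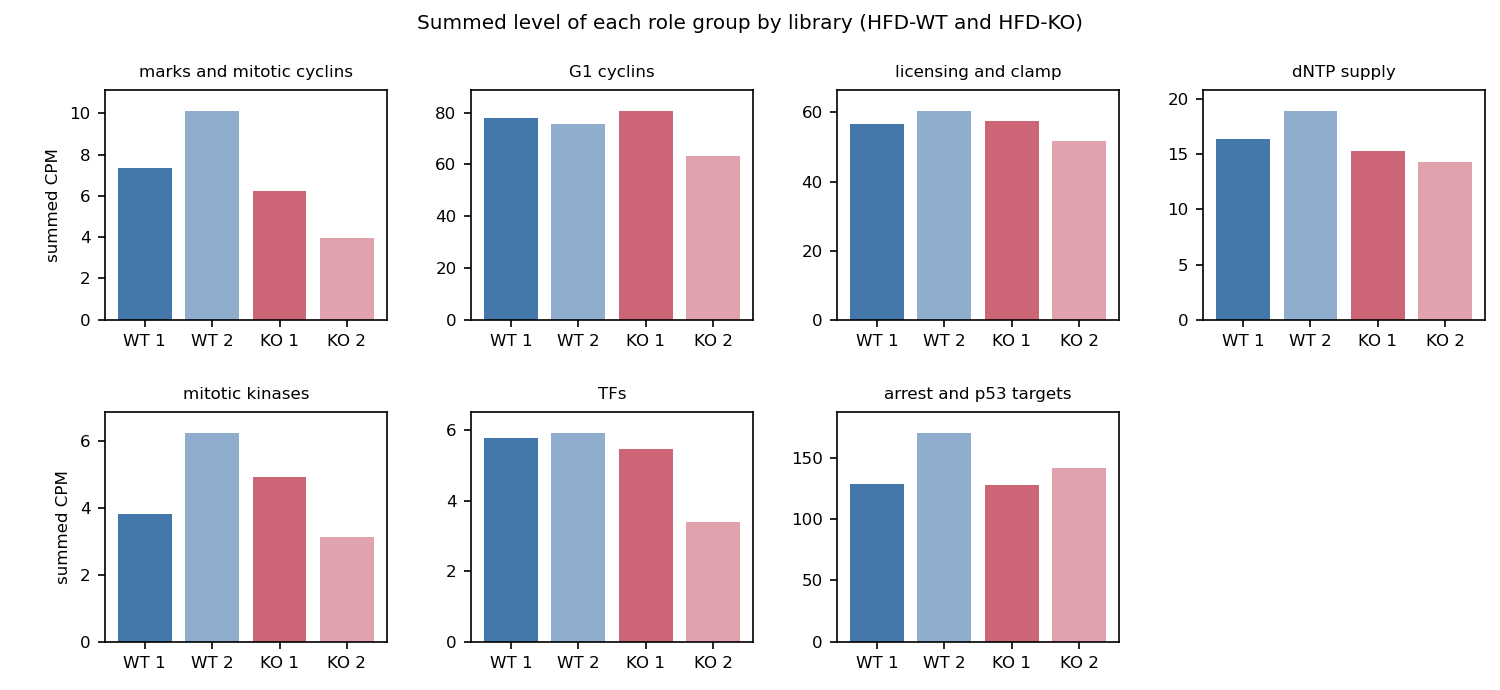
Summed CPM of each role group in the 4 libraries, with bars from 0 and a scale of its own for each panel. HFD-KO replicate 2 has the lowest sum in all panels except that of arrest and p53 targets, and both HFD-KO libraries lie below both HFD-WT libraries for the marks and mitotic cyclins, for deoxynucleotide supply and for the transcription factors.

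The arrest genes were well counted, with 612 to 1783 reads in each library. Cdkn1a encodes p21, a CDK inhibitor and the best known target of p53, and lies on chromosome 17 from 29309950 to 29319701. It had 35.4 and 64.8 CPM in HFD-WT and 23.9 and 43.4 CPM in HFD-KO libraries. Replicates within a group thus differed by more than the group means of 50.1 and 33.7 CPM did, and the groups overlapped. Its log2 fold change was -0.57 (standard error 0.33, 95% interval -1.34 to 0.19, adjusted p = 0.668 by edgeR). The value was -1.07 without HFD-KO replicate 2 and -0.07 without HFD-WT replicate 2. It was -0.20 without HFD-KO replicate 1 and -0.95 without HFD-WT replicate 1. Cdkn1b, which encodes the CDK inhibitor p27, had 26.0 and 24.6 CPM in HFD-WT and 27.3 and 25.6 CPM in HFD-KO libraries, and its 95% interval of -0.13 to 0.26 was the narrowest of the 32 genes. Mdm2, the ubiquitin ligase that p53 induces and that degrades p53, had 25.1 and 31.8 CPM against 32.0 and 30.5 CPM. Ccng1, another p53 target, had 42.6 and 49.5 CPM against 44.9 and 42.4 CPM. The intervals of Mdm2, -0.14 to 0.42, and of Ccng1, -0.31 to 0.16, both included 0. The 3 p53 targets among the members thus had fold changes of both signs, and 0 of them had an unadjusted p under 0.05.

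A further 145 genes of the cell cycle and the p53 pathway were read from the same fit. Of these, 128 were tested, 0 had an adjusted p under 0.05, and at an unadjusted p under 0.05 4 were higher and 2 were lower, 3.13% and 1.56% against 4.25% and 4.73% of all genes tested. DESeq2's Wald test gave 1 of 134 genes at an adjusted p under 0.05, Gadd45b, against 0.881% of all genes. At an unadjusted p under 0.05 it gave 3 of 145 higher and 0 lower, against 1.76% and 2.15%. Their median log2 fold change was -0.02. Among 25 tested genes of mitosis that are not members, such as the spindle motors and the condensin subunits, the median was -0.26, with 16 negative and 9 positive, and 0 had an unadjusted p under 0.05. Both HFD-KO values lay below both HFD-WT values in 6 of these 25 and above them in 1, 24% and 4% against 20.4% and 20.5% of all genes tested. HFD-KO replicate 2 was lowest in 14 of them, 56% against 29.2% of all genes tested.

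Other replication genes had a median of 0.00328 over 38 tested, with 2 higher and 1 lower at an unadjusted p under 0.05 by edgeR. These were 5.26% and 2.63%, against 4.25% and 4.73% of all genes tested. Tk1, which encodes the thymidine kinase of dividing cells, had 11.9 and 12.0 CPM in HFD-WT and 14.5 and 14.1 CPM in HFD-KO libraries, a log2 fold change of 0.26 (adjusted p = 0.499 by edgeR). It overlaps Afmid, on the opposite strand with a mean of 120.3 CPM, by 169 bases. Mcm10, which helps to start replication forks, had 57.2 and 55.3 CPM against 75.5 and 60.4 CPM, and a log2 fold change of 0.27. Gins4, a subunit of the replicative helicase, had 13.2 and 13.1 CPM against 11.6 and 9.63 CPM, a log2 fold change of -0.30. Each of these 3 genes, named for a small unadjusted p, was separated between the groups, with adjusted p values of 0.499 or above by edgeR. Of all genes tested 20.5% were separated in the higher direction and 20.4% in the lower. Wee1, the kinase that restrains CDK1, was the 1 lower gene of the 16 other cyclins, kinases and phosphatases, 6.25% against 4.73% of all genes tested. It had 11.1 and 12.9 CPM in HFD-WT and 10.1 and 8.79 CPM in HFD-KO libraries. The RB, E2F and DREAM genes had 0 of 17 and the other CDK inhibitors 0 of 3 at an unadjusted p under 0.05.

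Of 29 genes in a list of other p53 targets and regulators, chosen by name, 2 were higher at an unadjusted p under 0.05 by edgeR. The share of 6.90% stood against 4.25% of all genes tested, and 0 genes of the list were lower. The 2 higher genes were of the Gadd45 family of stress-induced growth arrest genes, and whether p53 acts on either was not tested. Gadd45b, on chromosome 10 from 80765907 to 80768038, had 115 and 103 reads in HFD-WT and 269 and 169 reads in HFD-KO libraries, or 3.97 and 3.74 CPM against 10.2 and 7.07 CPM. The HFD-KO values were both well above the HFD-WT values. Its log2 fold change was 1.17 (standard error 0.21, 95% interval 0.68 to 1.65, unadjusted p = 0.00069 and adjusted p = 0.172 by edgeR), from 0.87 to 1.40 when each library was left out, and the adjusted p ranged from 2.1e-05 to 0.971 over the alternatives. Gadd45a had 6.49 and 4.94 CPM in HFD-WT and 7.37 and 10.2 CPM in HFD-KO libraries, a log2 fold change of 0.62 (adjusted p = 0.451 by edgeR). Gadd45g, the third gene of the family, was chosen for mention after its values were seen, and overlapped between the groups at 19.2 and 9.70 CPM against 9.34 and 15.4 CPM. Trp53 itself, also chosen afterwards, had 17.8 and 17.9 CPM in HFD-WT and 21.2 and 17.9 CPM in HFD-KO libraries.

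**Figure D4:**
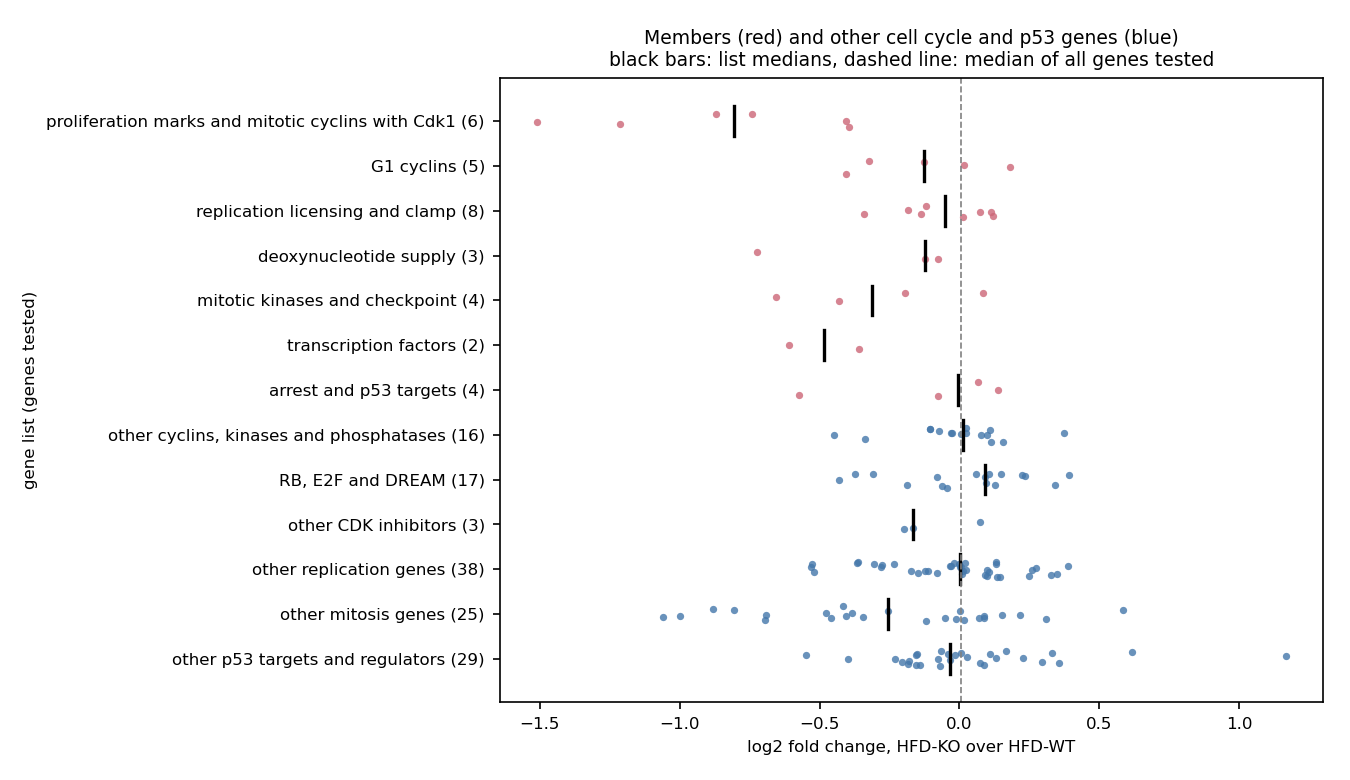
Log2 fold change of HFD-KO over HFD-WT of the tested members by role and of other cell cycle and p53 genes by list, 1 point per gene, with a bar at the median of each list and a dashed line at that of all genes tested. The marks and mitotic cyclins lie furthest to the left with a median of -0.81, other mitosis genes have a median of -0.26, and Gadd45b stands alone at 1.17.

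No member had an adjusted p under 0.05 by edgeR, so a lower level of these genes in HFD-KO livers was not established. Were it lower, bulk liver RNA could not tell fewer dividing cells from less RNA per dividing cell. The cell types that divide cannot be told apart either. Some lists of markers of other cells differed between the groups at an unadjusted p under 0.05, but 0 markers of any list had an adjusted p under 0.05, the lowest being 0.112 by edgeR. The counts of markers below stand against 4.73% lower and 4.25% higher of all genes tested at an unadjusted p under 0.05. Of 13 markers of Kupffer cells and macrophages, 9 were lower at an unadjusted p under 0.05 and 0 were higher, and their summed level was 496 and 621 CPM in HFD-WT and 405 and 388 CPM in HFD-KO libraries. Of 11 stellate cell markers 4 were lower and 0 were higher, with sums of 378 and 419 CPM against 335 and 280 CPM. Endothelial markers had 1 of 10 lower, with overlapping sums from 305 to 354 CPM. Of 10 markers of B and plasma cells 4 were higher, and their sum was 22.3 and 19.1 CPM in HFD-WT and 133 and 26.4 CPM in HFD-KO libraries, so it was set by HFD-KO replicate 1. T and NK cell markers, with 0 of 9 tested at an unadjusted p under 0.05, summed to 11.4 CPM in HFD-KO replicate 1 and to between 3.60 and 6.47 CPM in the other libraries. Neutrophil markers, with 0 of 3 tested at such a p, summed to between 4.44 and 9.52 CPM. Of 8 erythroid markers tested 3 were higher, with sums of 764 and 606 CPM against 818 and 1154 CPM. Of 5 cholangiocyte markers tested 1 was lower, with sums of 71.6 and 90.6 CPM against 59.7 and 50.1 CPM. The lower marker was Spp1, which set the sum with 64.3 and 83.9 CPM in HFD-WT and 53.8 and 42.8 CPM in HFD-KO libraries. Krt19, Krt7, Epcam and Sox9 overlapped between the groups. The part of any of these cells in the values of the cell cycle genes was not tested. Each listed marker gene of the table had a read in some library.

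Which members passed a threshold depended on the library left out, and so did the share of all genes that passed it. These fits keep 1 library in a group and assume that it varies like the others. Without HFD-KO replicate 1, 8 of 33 members tested were lower and 0 higher at an unadjusted p under 0.05, against 8.12% and 8.25% of all genes, and 2 had an adjusted p under 0.05, against 5.31%. The 8 were Ccnb2, Ccnb1, Top2a, Rrm2, Ccnd1, Pcna, Mcm2 and E2f1. Without HFD-KO replicate 2, 3 of 33 were lower and 0 higher, against 5.63% and 5.77%, and 1 member, Cdkn1a, had an adjusted p under 0.05, against 3.08% of all genes. Without HFD-WT replicate 1, 3 of 33 were lower and 0 higher, against 3.91% and 2.85%, with 0 members and 0.0901% of all genes at an adjusted p under 0.05. Without HFD-WT replicate 2, 1 of 32 was lower, Ccnb2, and 1 higher, Mdm2, against 1.56% and 1.92%, and 0 genes of the whole table had an adjusted p under 0.05. With all 4 libraries and no filter on low counts, 5 of 35 members were lower and 0 higher, against 4.56% and 4.03%, with 0 members and 0.936% of all genes at an adjusted p under 0.05.

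**Figure D5:**
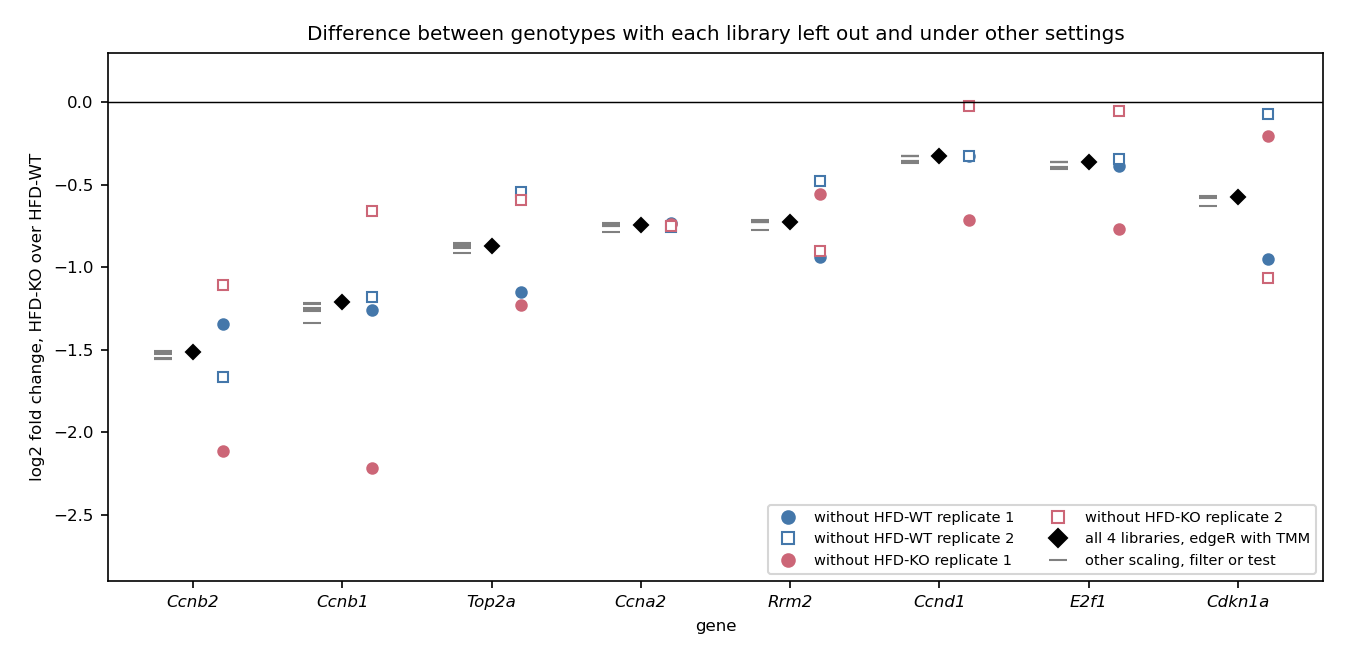
Log2 fold change of 8 members with all 4 libraries (diamonds), with each library left out (circles and squares) and under other scaling, filters or tests (bars). Ccnb2, Ccnb1, Top2a and Rrm2 stay below -0.4 throughout, and Ccna2 stays between -0.79 and -0.73. Ccnd1, E2f1 and Cdkn1a come close to 0 when 1 library is left out.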

How the data were processed

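Liver RNA of 2 HFD-WT and 2 HFD-KO mouse libraries was compared, with groups and replicate numbers taken from the sample titles. The authors made polyA libraries with a kit that keeps strand (MGIEasy), trimmed the paired reads with a tool of the same maker, aligned them, and counted genes of GENCODE in Partek. Tool versions, the use of strand and the handling of reads with several hits are not given in the sources used here. The methods name mm10, the labels name GRCm39 and mm10, and the gene positions of the table are those of GRCm39. The deposited read counts are whole numbers without normalization, with 24480798 to 28691330 counts per library, and only these were tested. The deposited RPKM values scale each gene by its exon length as well as depth, and served to compare levels between genes. The deposited TPM values were not used, and neither were the deposited CPM values, a score whose library size differs from the summed counts. The printed CPM come from the counts and the TMM factors.

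The counts were fitted with edgeR 4.0.16 under R 4.3.3. The filter was filterByExpr (12967 of 25655 genes passed), and genes were scaled by TMM and tested two-sided by the quasi-likelihood test, and p-values were adjusted by Benjamini-Hochberg over all genes tested. The common biological coefficient of variation was 0.102. The 95% intervals are those of the same fit. With 2 libraries against 2, the smallest p of an exact permutation test is 0.333, so none was run, and each gene's edgeR test borrows its spread from the other genes. On simulated counts of these depths the procedure found 157 of the 200 genes given a 2-fold change and made 16 false calls, with 12824 genes in that fit. The 200 genes were drawn from genes of every level. The share found therefore does not hold for members with few reads, and an uncalled member may differ by 2-fold or more. Alternatives were size factors of DESeq2, the library size alone, no filter, a mean of at least 1 CPM, DESeq2 1.42.0, limma-voom (limma 3.58.1), a replicate block and leaving out each library. The exact intervals of read ratios (Clopper-Pearson, scipy 1.17.1) cover counting error only. Gene spans of 11 members overlap another gene of the table.

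The members, gene lists and tests were chosen with earlier results of these data known. All 35 members were to be accounted for. Of the other lists, genes with an adjusted p under 0.05 and up to 4 with the smallest unadjusted p under 0.05 were named.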

Additional observations from a re-analysis of the deposited data

How the results depend on the processing

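Of 412 fold changes of the 38 named genes other than Adarb1 under the alternatives, 381 kept their direction and their side of an adjusted p of 0.05, 9 passed that threshold and 22 changed sign. The count of members at an adjusted p under 0.05, 0 with all libraries, was 0 to 2 when each library was left out (Ccnb2 and Ccnd1 without HFD-KO replicate 1, Cdkn1a without HFD-KO replicate 2) and 0 under every other alternative. The count lower at an unadjusted p under 0.05, 3 with all libraries, was 5 with no filter on low counts (Ccnb2, Rrm2, Top2a, Ccnd1 and Cdkn1a) and 1 to 8 when each library was left out. It was 8 without HFD-KO replicate 1, where 8.12% of all genes tested were lower by that rule, and 1 without HFD-WT replicate 2, where 1.56% were. The count higher was 0 to 1 in those fits, the 1 being Mdm2 without HFD-WT replicate 2. The median of the members ranged from -0.354 to -0.0463 in those fits. Other genes of the pathway at an adjusted p under 0.05 were 1 with DESeq2's Wald test and with no filter, and 0 to 6 with a library left out. At an unadjusted p they were 6 with all libraries, 3 with DESeq2's Wald test and 4 to 13 with a library left out. Over all genes, the 10 at an adjusted p under 0.05 became 117 with DESeq2's Wald test, 162 with no filter, 6 with the library size alone, 6 with a mean of at least 1 CPM and 0 to 705 with a library left out (705 without HFD-KO replicate 1, 411 without HFD-KO replicate 2 and 0 without HFD-WT replicate 2). At an unadjusted p the 1164 became 676 with DESeq2's Wald test and 462 to 2173 with a library left out. Adarb1 kept its direction, at -1.17 with DESeq2's Wald test, -1.18 with no filter and -1.51 to -0.89 with a library left out, and its adjusted p under these alternatives ranged from 3.1e-07 to 0.971. The causes were not tested.

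Fits with the replicate number as a block gave 20 genes at an adjusted p under 0.05, a value of -1.19 for Adarb1 (adjusted p = 0.040) and 3 lower members at an unadjusted p, with Cdkn1a in place of Ccna2. The deviations of same-numbered libraries from their group means had a correlation of -0.08 across genes, and neither the labels nor the methods describe a pairing, so the numbers are not taken as pairs.

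With the library size alone, Ccnd3 was at -0.0288 and Mcm6 at -0.0306. With a library left out the values of genes that changed sign ranged from -0.92 to 0.36 for Mki67, -0.96 to 0.0898 for Cdk1, -0.12 to 0.14 for Ccnd3, -0.41 to 0.12 for Ccne2, -0.31 to 0.0454 for Mcm3, -0.42 to 0.11 for Mcm4, -0.30 to 0.43 for Mcm5, -0.20 to 0.20 for Mcm6, -0.0880 to 0.22 for Mcm7, -0.29 to 0.10 for Rrm1, -0.35 to 0.14 for Tyms, -1.06 to 0.0137 for Cdc20, -0.47 to 0.93 for Aurka, -0.0289 to 0.32 for Mdm2 and -0.19 to 0.0381 for Ccng1. A mean under 1 CPM was found for 9 members, Cdk1, Ccnb1, Ccne1, Cdc6, Aurka, Aurkb, Plk1, Bub1 and Foxm1, whose values rest on few reads.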
